A study of Tupaia belangeri with 2 samples.

Results

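Definitive erythroid barcodes, including those in which few genes were detected, were examined in single-cell transcriptomes of whole tree shrew (Tupaia belangeri) brains. They were selected on measured values. The adult-type and embryonic globin genes HBB, HBA1, HBA2, HBE1, HBG1, HBZ, HBAZ and HBQ1 had to hold at least 50% of the unique molecular identifiers (UMIs, 1 per captured transcript) of a barcode. The embryonic members HBE1, HBG1, HBZ and HBAZ had to make up under 10% of these globin UMIs, and no minimum number of genes was set. This rule chose 2209 of the 18926 barcodes, 1620 of 9241 in embryo 1 and 589 of 9685 in embryo 2.

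The data came from 2 embryos of 4 to 5 postconceptional weeks, each whole brain giving a single droplet library (10x, 3′ ends, v3 reagents), with no treatment or other condition. The labels give neither strain nor sex. The dura mater and blood vessels had been taken off before the tissue was dissociated with papain and passed through a density gradient. The libraries held 41868023 and 38077767 UMIs in embryos 1 and 2, and every barcode had at least 500 UMIs. The libraries shared 18 barcode sequences, of which 3 in embryo 1 and 2 in embryo 2 were definitive erythroid.

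Red blood cells of mammalian embryos arise in successive waves. Primitive erythroid cells from the yolk sac carry embryonic globins (zeta, epsilon and, in many species, gamma), and definitive cells made later in the fetal liver carry adult-type alpha and beta globin. As they mature, definitive cells make haemoglobin almost to the exclusion of other proteins, take up iron, synthesise haem, remodel the membrane skeleton, remove mitochondria and ribosomes through autophagy and the ubiquitin system, and expel the nucleus, leaving a reticulocyte whose RNA runs down. A barcode from such a cell therefore can hold many UMIs of few genes.

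Definitive erythroid barcodes made up 17.5% of embryo 1 (exact 95% binomial interval 16.8 to 18.3%) and 6.08% of embryo 2 (5.61 to 6.58%). These intervals cover counting error only. They held a larger share of the RNA, 31.1% and 14.4% of all UMIs, and 96.8% and 96.4% of all globin UMIs of the library. The share in embryo 1 was above that in embryo 2, but with 1 brain on each side, blood left in a brain and other differences between the embryos or libraries cannot be told apart. A further 29 and 13 barcodes passed the globin minimum with at least 10% embryonic globin and are called primitive here. The remaining 7592 and 9083 barcodes had under 50% globin, with a median of 0.272% and 0.0879%, and are called other barcodes. They include barcodes rich in embryonic globin below this limit. With a minimum of 10% globin, 221 and 124 barcodes would be called primitive in place of 29 and 13. Other barcodes held 72443 and 34061 HBE1 UMIs, above the 43112 and 18145 of primitive barcodes.

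Few definitive barcodes lay near the globin limit. In embryo 1, 22 definitive barcodes lay between 50 and 60% globin, with a median of 1300 genes, and 16 barcodes with few embryonic globin UMIs lay just outside, between 40 and 50%, with a median of 1002.5 genes. Embryo 2 had 10 such barcodes inside (median 562.5 genes) and 5 outside (1451 genes). Most primitive barcodes, by contrast, lay near it, with 22 of 29 and 7 of 13 between 50 and 60% globin and a further 34 and 10 barcodes rich in embryonic globin between 40 and 50%. At least 90% globin was reached by 890 definitive barcodes of embryo 1 (54.9%) and 397 of embryo 2 (67.4%). The limit on embryonic globins fell in an empty range. The definitive barcode with the most embryonic globin reached 7.15% of its globin UMIs in embryo 1 and 0.394% in embryo 2, while the primitive barcode with the least was at 97.2% in both embryos. No embryonic globin UMI at all was found in 1238 and 508 definitive barcodes, and 5 and 0 exceeded 1%.

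**Figure D1:**
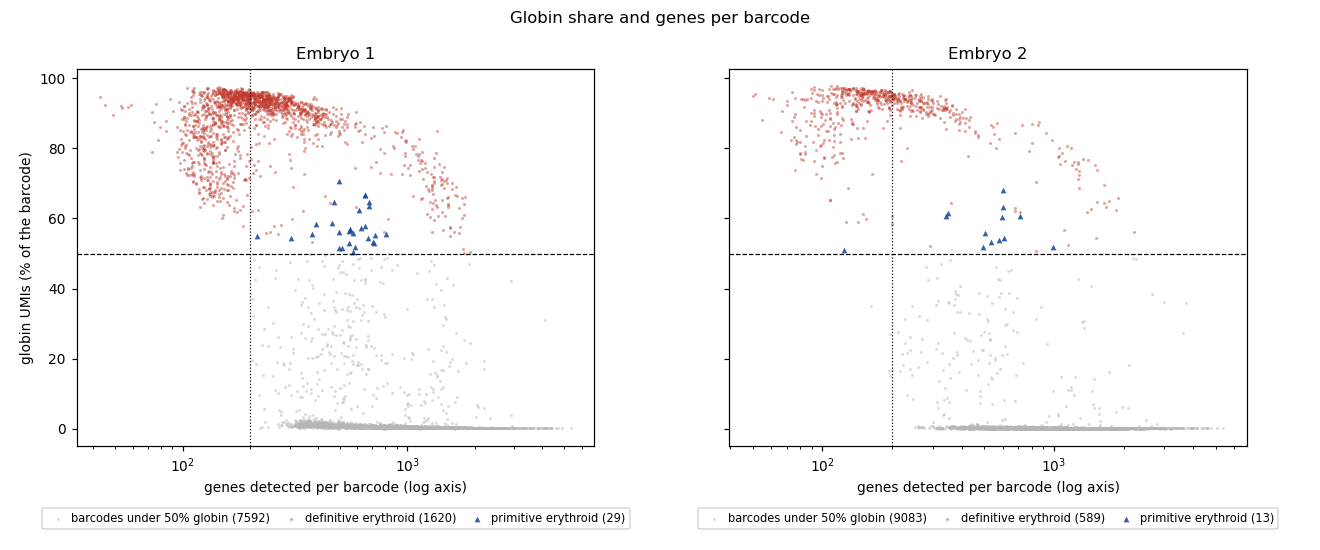
Each point is 1 barcode, with the number of genes detected (x axis, log scale) and the share of its UMIs from globin genes (y axis, percent), for embryo 1 (left) and embryo 2 (right). The dashed line marks 50% globin and the dotted line 200 genes. Red points are definitive erythroid (1620 and 589), blue triangles primitive erythroid (29 and 13) and grey points other barcodes (7592 and 9083). Most definitive barcodes lie above 90% globin, on both sides of 200 genes.

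A definitive barcode was rich in UMIs and poor in genes. The median definitive barcode held 8580.5 UMIs in embryo 1 and 10041 in embryo 2, against 3342.5 and 3118 in other barcodes. It nevertheless showed only 195.5 and 175 genes, against 1188 and 1173. Outside the globin genes, 509 and 523 UMIs remained per median barcode. When each barcode was thinned to 500 UMIs, the median was 37.5 and 30.8 genes in definitive, 137 and 137 in primitive and 324 and 335 in other barcodes, so in both embryos the order was the same as without thinning. Part of this gap follows from the rule itself, which selects barcodes filled by globin. With globin UMIs set aside and 200 non-globin UMIs drawn per barcode, the medians were 108 and 97.4 genes in definitive barcodes against 158 and 161 in other barcodes. There, 187 and 95 definitive barcodes were too shallow and were left out.

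A minimum of 200 genes would leave out 1193 of the 2209 definitive barcodes. In embryo 1, 840 barcodes had under 200 genes, 631 had 200 to under 500, 55 had 500 to under 1000 and 94 had 1000 or more. In embryo 2 these numbers were 353, 181, 21 and 34. Barcodes under 200 genes had median UMIs of 3009.5 and 6872, against 12204 and 14139 in those of 200 to under 500 genes, and median non-globin UMIs of 286.5 and 311 against 830 and 1002. They were 90.8% and 94.0% globin at the median. The number of UMIs per barcode formed a main peak at about 8000 to 16000 and a long low tail. In embryo 1, 368 barcodes had under 2000 UMIs, 397 had 2000 to under 8000, 794 had 8000 to under 16000 and 61 had 16000 or more. In embryo 2 the corresponding numbers were 100, 120, 320 and 49.

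**Figure D2:**
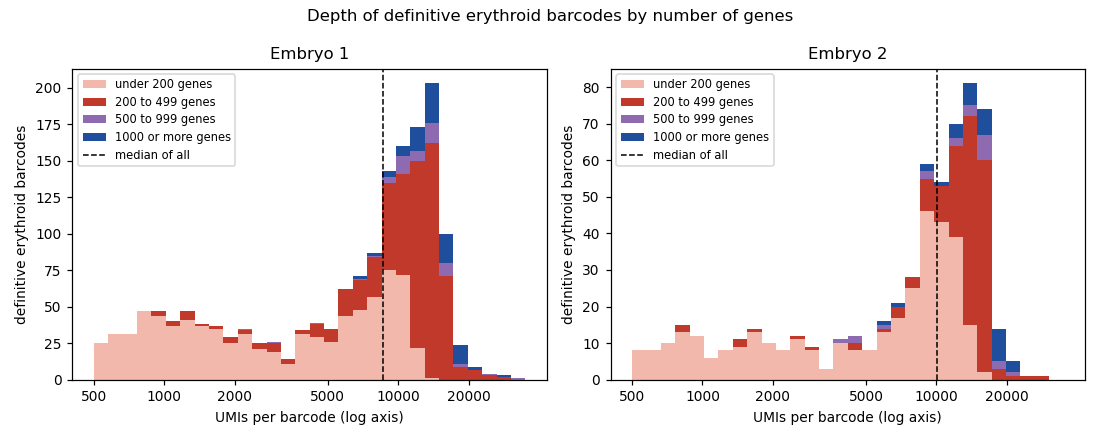
Number of definitive erythroid barcodes (y axis) by UMIs per barcode (x axis, log scale) in embryo 1 (left) and embryo 2 (right), stacked by the number of genes detected. The dashed line is the median of all definitive barcodes, 8580.5 and 10041 UMIs. Barcodes under 200 genes fill the low tail and reach into the main peak, and barcodes of 1000 or more genes lie at its upper end.

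Among the globins, beta globin was by far the most abundant. HBB gave 11536216 of the globin UMIs of definitive barcodes in embryo 1 (99.2%) and 4918561 in embryo 2 (98.9%). The alpha globins followed at a distance, HBA1 with 40362 and 26326 UMIs and HBA2 with 29165 and 19790. The alpha to beta ratio of UMIs was thus 0.00603 and 0.00938, or 166 and 107 HBB UMIs for each alpha UMI. Theta globin (HBQ1), a little-studied member of the alpha cluster, gave 0.202% and 0.181% of globin UMIs. These shares take part in the rule and are given as a description. As proteins, alpha and beta globin are made in near-equal amounts. The HBA1 and HBA2 models lie side by side in the annotation (models 966 and 965 of chromosome 2, with HBQ1 at 964, HBAZ at 967 and HBZ at 968). Reads shared by near-identical copies are not counted by the software, and the part of this in the low alpha counts was not tested. HBE1, HBG1 and HBB were consecutive models on chromosome 18.

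The primitive barcodes showed the complementary pattern, HBE1 at 62.1% and 67.4% and HBG1 at 36.7% and 31.7% of globin UMIs, with 0.634% and 0.293% from HBB. Their alpha-type globins were also few. HBZ and HBAZ together gave 97 UMIs in embryo 1 and 34 in embryo 2 beside 68576 and 26669 of HBE1 and HBG1, so the low share of alpha-type globins was seen in both erythroid groups.

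The label was checked on ALAS2 and AHSP, which the rule does not use. ALAS2 is the erythroid enzyme that starts haem synthesis, and AHSP is the chaperone that holds free alpha globin. At least 1 UMI of either was present in 87.8% and 92.5% of definitive barcodes, against 7.36% and 2.63% of other barcodes. After thinning to 500 UMIs, AHSP was seen in 63.2% and 69.1% of definitive barcodes against 0.910% and 0.373% of the others, and ALAS2 in 47.4% and 52.5% against 0.877% and 0.362%. Both markers were thus more frequent in definitive than in other barcodes of both embryos, at equal depth (median depths before thinning are given above). Primitive barcodes held them too, with either present in 69.0% and 92.3%, and after thinning AHSP in 6.56% and 8.32% and ALAS2 in 18.4% and 26.4%. These values describe barcodes that the globins chose, and the separation of definitive from primitive rests on those globins.

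The genes outside the globins were next summed per embryo and group, scaled to 1000000 non-globin UMIs (CPM), and compared between definitive and other barcodes with edgeR's quasi-likelihood test. Of 5708 genes tested, 606 (10.6%) were higher and 1127 (19.7%) lower in definitive barcodes at a Benjamini-Hochberg adjusted p under 0.05. The median log2 difference over all genes was -0.39. The balance depended on scaling. With library totals in place of TMM factors, which scale libraries by the bulk of their genes, every log2 difference moved by about -0.72, and 402 genes were higher and 4337 lower, so 8.48% of calls were higher instead of 35.0%. DESeq2 called 475 higher and 53 lower, or 89.96% higher. Of the 606 higher calls, 475 were kept with DESeq2 and 583 with barcodes of at least 200 genes, and of the 1127 lower calls 53 and 59. With other barcodes limited to those under 1% globin, 606 of the 606 higher and 1108 of the 1127 lower calls were kept. The p-values measure the spread between these samples, 2 embryos with 2 residual degrees of freedom and a spread pooled over genes. The groups were set by globin content in the same barcodes, so higher erythroid genes, ALAS2 and AHSP included, are not independent evidence that the barcodes are erythroid.

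Most genes of haem synthesis were higher in definitive barcodes. Of the 13 listed, 11 had a model and 9 were tested, of which 8 were higher and 0 lower, with a median log2 difference of 5.44. ALAS2 stood at 20146 and 23579.7 CPM in definitive barcodes of embryos 1 and 2, against 17.1 and 8.87 CPM in other barcodes (log2 difference 11.49 ± 0.37 SE, adjusted p = 4.43e-200). UROD, which forms coproporphyrinogen, stood at 1565 and 2394 against 60.6 and 59.3 CPM. ALAD, an earlier step, stood at 890.2 and 1103 CPM against 39.1 and 43.4 CPM. For each of these genes both definitive values lay above both other values, as they did for 477 of the 5708 genes tested (8.36%), while for 4908 (86.0%) both lay below. HEM6 (the entry name of CPOX, coproporphyrinogen oxidase) differed less, at 29.8 and 32.6 against 9.26 and 9.79 CPM.

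Among chaperone and antioxidant genes, 11 of the 15 tested (of 18 listed) were higher and 2 lower, and with library totals 9 and 4. AHSP was the most abundant non-globin gene of definitive barcodes, with 56460.1 and 68670.6 CPM against 27.4 and 16.0 CPM in other barcodes (log2 difference 12.24 ± 0.42 SE, edgeR adjusted p = 1.08e-179). It was the highest gene in both embryos. PRDX2, the main peroxiredoxin of red cells, came to 12795 and 17003 CPM against 1768 and 2100.2 CPM (log2 difference 3.68 ± 0.27). GPX1, a peroxide-reducing glutathione peroxidase, stood at 739.6 and 861.8 against 102 and 123 CPM.

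Of the 14 iron genes tested (20 listed), 8 were higher and 2 lower, but 6 and 6 with library totals. GLRX5, needed for iron-sulphur clusters, and NCOA4, which delivers ferritin to autophagy, stood at 397 and 456 and at 958 and 871 CPM in definitive barcodes, against 17.5 and 14.1 and 40.7 and 42.3 CPM in the others. The ferritin chains, named FRIL (light) and FRIH (heavy) in the annotation, differed less, at 8969 and 10451 CPM and 6852 and 9222 CPM against 4668 and 4724 and 4273 and 4273 CPM (log2 differences 1.79 ± 0.25 and 1.65 ± 0.24). FRIL and FRIH sum 3 and 10 models of one name. Reads shared by near-identical copies are not counted, and the part of this in the ferritin levels was not tested.

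Of 36 listed genes of the red cell membrane and skeleton, 26 were tested, and 20 were higher and 2 lower, with a median log2 difference of 4.85. With library totals 18 were higher and 5 lower. MPP1, a membrane scaffold protein, stood at 892 and 823.5 CPM against 12.7 and 10.5 CPM. Protein 4.1, which ties spectrin to the membrane and appears in the annotation under the name 41, stood at 509 and 418 CPM against 27.4 and 28.2. SLC14A1, the urea transporter of the Kidd blood group, stood at 103 and 126 against 0.387 and 0.185 CPM. RHCE, an Rh blood group protein, differed between the embryos as well, with 174 CPM in embryo 1 and 421 in embryo 2, against 3.91 and 2.56 CPM in other barcodes.

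In the group of glycolysis, 2,3-bisphosphoglycerate and gas exchange, 6 of 16 tested genes (20 listed) were higher and 2 lower, and this balance turned to 5 and 8 with library totals. BPGM, which makes the 2,3-bisphosphoglycerate that lowers the oxygen affinity of haemoglobin, stood at 3061 and 2679 CPM in definitive barcodes against 11.8 and 9.20 CPM in the others (log2 difference 8.83 ± 0.28 SE, edgeR adjusted p = 9.87e-213). Carbonic anhydrase 1 (CAH1 in the annotation) stood at 650.1 and 733.5 against 2.85 and 0.988 CPM. PGAM1, the related enzyme of general glycolysis (8 models of one name), was lower, at 1176 and 999.7 against 2641 and 2962 CPM. This call of PGAM1 was lost under DESeq2 (adjusted p = 0.0535) and with barcodes of at least 200 genes (edgeR adjusted p = 0.740).

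Of 18 tested ubiquitin and proteasome genes (29 listed), 15 were higher and 0 lower, with a median log2 difference of 3.12, and with library totals 14 were higher and 2 lower. UBE2O, the ubiquitin ligase that clears ribosomes from reticulocytes, stood at 3657 and 3662 CPM against 99.5 and 93.8. MKRN1, a RING-type protein (6 models of one name), stood at 1062 and 1260.2 CPM against 25.6 and 25.5. TRIM10, of the same type, stood at 162 and 162.8 against 0.0704 and 0.0618 CPM. Of 10 tested autophagy genes (20 listed), 6 were higher and 0 lower (6 and 1 with library totals), led by BNIP3L, a receptor for mitochondrial removal, at 1239.7 and 1429 against 50.7 and 44.4 CPM.

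Fewer regulators than effectors could be tested. Of 28 listed erythroid transcription regulators, 22 had a model and 11 passed the filter on low counts, with 5 higher and 0 lower. HEMGN, a nuclear factor of erythroid cells, stood at 599.6 and 484.5 CPM against 1.69 and 0.927. Of 8 listed cytokine receptors only 2 were tested, and EPOR, the erythropoietin receptor, was higher, at 521 and 477 CPM against 2.54 and 1.17.

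Other genes with the largest differences were named by rank. PCTP, a phosphatidylcholine transfer protein, stood at 796 and 795 CPM against 1.09 and 1.02, and TUBA4A, an alpha tubulin, at 1059 and 1699 against 3.099 and 1.98. ISG20, an RNA exonuclease, SLFN14, a ribosome-associated endonuclease, and LIPR1, the entry name of a pancreatic lipase-related protein, lay between 254 and 454 CPM in definitive barcodes and under 1 CPM in other barcodes of both embryos. By mean level, AHSP was followed by DCAF5 at 38673 and 44453 CPM, ALAS2 and OAZ1, the antizyme that limits polyamine synthesis, at 21929.9 and 21588 CPM. DCAF5 sums 3 models, and the annotation's names were taken as deposited. Ribosomal protein genes took 31.4% and 30.7% of non-globin UMIs, against 28.1% and 26.4% in other barcodes.

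**Figure D3:**
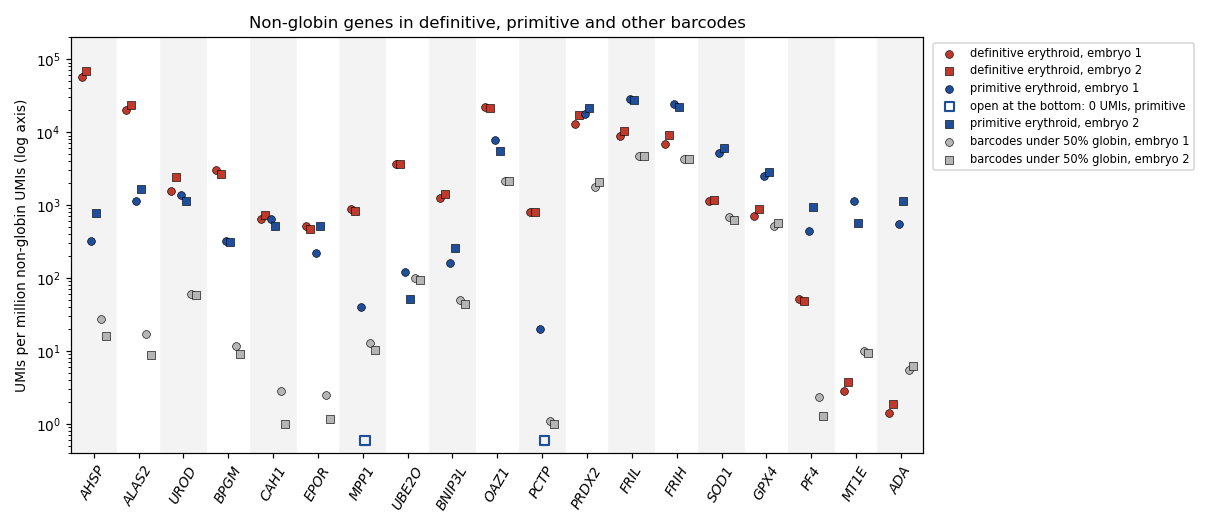
Level of 19 genes in UMIs per 1000000 non-globin UMIs (y axis, log scale) in definitive erythroid (red), primitive erythroid (blue) and other barcodes (grey). Circles are embryo 1 and squares embryo 2, each a UMI sum over the barcodes of that group, and an open blue square at the bottom marks 0 UMIs. AHSP, ALAS2 and BPGM lie highest in definitive barcodes, and both ferritin genes, PF4, MT1E and ADA highest in primitive barcodes.

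Markers of brain cells were present in definitive barcodes. The 14 neuron genes with a model summed to 2698 and 2719.6 CPM in definitive barcodes, 50.4% and 43.3% of the level in other barcodes, with MAP1B the most abundant at 1324 and 1281 CPM and 1 gene at 0. The 11 radial glia genes summed to 43.3% and 30.6% of that level, led by VIM at 520.0 and 214.5 CPM, with none at 0. No gene of either list was called higher. Of 12 neuron genes tested, 2 were called lower, with a median log2 difference of -0.36, near the -0.39 and the 19.7% over all genes. That count depended on the setting. It was 12 with library totals, 9 with definitive barcodes of 200 to under 500 genes (median -1.35 against -0.69 over all genes), 7 when erythroid barcodes of 1000 or more genes were left out, and 1 with DESeq2 or with barcodes of at least 200 genes. Of 7 radial glia genes, 5 were called lower, but 1 with DESeq2 and 1 with barcodes of at least 200 genes, and the call of VIM was lost in 7 alternatives, with DESeq2 among them (adjusted p = 0.228). Microglia genes summed to 36.2 and 80.4 CPM (AIF1 highest, 3 of 9 at 0), endothelial genes to 6.39 and 13.4 CPM (KDR highest, 3 of 9 at 0) and meningeal fibroblast and pericyte genes to 31.3 and 17.2 CPM (COL3A1 highest, 3 of 9 at 0). Both remaining lists were above their level in other barcodes. Platelet genes summed to 63.2 and 55.5 CPM (378% and 326% of that level), mostly PF4, with 5 of 9 at 0, and of 2 tested PF4 was called higher. Granulocyte, mast and lymphoid genes summed to 197 and 207 CPM (158% and 162.9%), led by CSF3R, the 1 gene tested and called higher, with 8 of 11 at 0. The part of RNA from other cells, free or in the same droplet, in the results on non-globin genes was not tested.

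Most genes of dividing cells were lower than in other barcodes. Of 14 tested (18 listed), 10 were lower and 1 higher. TOP2A (2 models of one name) and MKI67, both used to mark dividing cells, stood at 480.3 and 259 CPM and at 362 and 209 CPM against 1511 and 970.0 and 927 and 716 in other barcodes. The exception was RRM2, a subunit of ribonucleotide reductase, which stood at 179 and 132 against 11.7 and 8.71 CPM (log2 difference 4.65 ± 0.20 SE, edgeR adjusted p = 7.12e-120). Of 11 tested genes of the interferon and stress list, 9 were lower and 2 higher, and of 14 tested genes of translation control 4 were higher and 4 lower (3 and 10 with library totals). With DESeq2, 6 genes of the dividing-cell list and 3 of the stress list were still called lower, and with barcodes of at least 200 genes 4 and 2. The call of MKI67 was lost with no filter (log2 difference -0.57, edgeR adjusted p = 0.0510) and with at least 200 genes (-0.52, 0.0648). With definitive barcodes under 200 genes alone, MKI67 (-0.67, edgeR adjusted p = 0.117) and TOP2A (-0.76, 0.0638) both lost their calls.

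Within the definitive barcodes, composition followed the number of genes. This is shown without a test, because the division uses the same cells and the number of genes is read from the same counts as the levels. AHSP rose from 36999 and 67468 CPM under 200 genes to 93799 and 111400.0 CPM at 200 to under 500 genes, and was lower at 1000 or more genes, with 17900.2 and 19193 CPM. UBE2O and TUBA4A were also highest at 200 to under 500 genes. UBE2O stood at 1888, 6189, 3739 and 1075 CPM across the 4 classes of embryo 1 and at 2978, 5960, 2783 and 1476 CPM in embryo 2. TUBA4A stood at 170 and 537 CPM under 200 genes and at 1943 and 3051 CPM at 200 to under 500 genes.

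Other genes were highest in the barcodes with fewest genes. DCAF5 fell from 59153 and 71623 CPM under 200 genes to 48566 and 54245 CPM at 200 to under 500 genes and 14399 and 14265 CPM at 1000 or more. RPLP0, a ribosomal stalk protein, went from 23433 and 26921 CPM under 200 genes to 9087 and 9000.1 CPM at 1000 or more. Under 200 genes, ribosomal protein genes took 36.2% and 34.6% of non-globin UMIs, against 31.7% and 30.9% at 200 to under 500 genes. BPGM stood at 4189 and 4558 CPM under 200 genes and at 4224 and 3349.5 CPM at 200 to under 500, with a lower level in the latter class in embryo 2 only. AHSP, UBE2O, TUBA4A, DCAF5, RPLP0 and BPGM lay above their level in other barcodes in all 4 classes of both embryos.

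**Figure D4:**
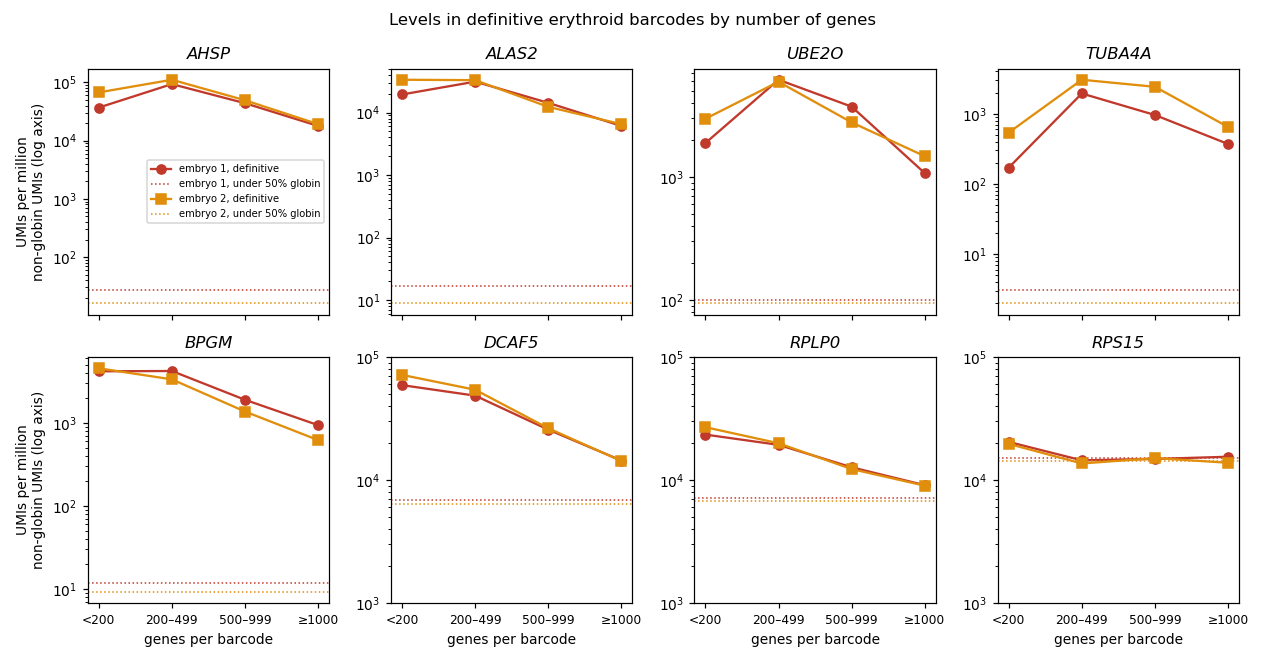
Level of 8 genes in definitive erythroid barcodes (y axis, UMIs per 1000000 non-globin UMIs, log scale) by the number of genes per barcode (x axis), for embryo 1 (red circles) and embryo 2 (orange squares). Dotted lines give the level in other barcodes. AHSP, UBE2O and TUBA4A peak at 200 to under 500 genes in both embryos, ALAS2 does so in embryo 1 only, and DCAF5 and RPLP0 are highest under 200 genes. RPS15 lies close to its level in other barcodes except under 200 genes.

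A like contrast appeared by depth. Barcodes under 2000 UMIs had 78.6% and 82.9% globin at the median, and 5704 and 7084 CPM of AHSP, 2834 and 3760.2 CPM of ALAS2 and 396 and 272 CPM of UBE2O. Barcodes of 8000 to under 16000 UMIs had 92.9% and 94.1% globin, 66611 and 82778 CPM of AHSP, 23162 and 29602 CPM of ALAS2 and 4335 and 4340.3 CPM of UBE2O. FRIL went the other way, from 11264 and 18801 to 8584.6 and 10921 CPM. The alpha to beta ratio was 0.0137 and 0.0234 under 2000 UMIs and 0.00568 and 0.00900 at 8000 to under 16000. Measured against HBB itself, AHSP gave 1.51 and 1.44 UMIs per 1000 HBB UMIs in the shallow barcodes and 7.62 and 7.17 in the deep ones. The neuron list took a larger share of non-globin UMIs in the shallow barcodes (3927 and 3161 CPM against 2591 and 2185), which had fewer such UMIs, 210.0 and 161.5 at the median against 813 and 700.5. At 16000 or more UMIs the neuron list was at 2661 CPM in embryo 1 and at 4079.9 CPM, above the shallow barcodes, in embryo 2. Depth is mostly HBB in these barcodes, so depth and cell state cannot be told apart.

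The 94 and 34 definitive barcodes of 1000 or more genes held 29.4% and 28.4% of all non-globin UMIs of the definitive group and were 68.8% and 73.6% globin. Their neuron list reached 87.9% and 112% of the level in other barcodes, against 72.5% and 31.8% at 500 to under 1000 genes and 22.2% and 8.70% at 200 to under 500. The dividing-cell list followed no such order in either embryo. It was at 70.6% and 35.2% in barcodes of 1000 or more genes, 19.4% and 71.7% at 500 to under 1000 and 22.5% and 16.2% at 200 to under 500. In the 55 and 21 barcodes of 500 to under 1000 genes the microglia list reached 190.0 CPM in embryo 1 and 787 CPM in embryo 2, against 73.2 and 80.9 CPM in other barcodes, with AIF1 at 164 and 282 CPM. This class held only 115809 and 49579 non-globin UMIs, so these levels rest on few UMIs. How many barcodes carried them is not given here. No doublets had been removed, and whether these barcodes hold more than 1 cell was not tested. When erythroid barcodes of 1000 or more genes were left out, 691 genes were higher and 1107 lower than in other barcodes, and 588 of the 606 higher calls were kept. With only the barcodes of 200 to under 500 genes, 678 were higher, 538 of them shared with the 606. With only those under 200 genes, 2641 genes were tested and 315 were higher, of which 308 were shared.

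**Figure D5:**
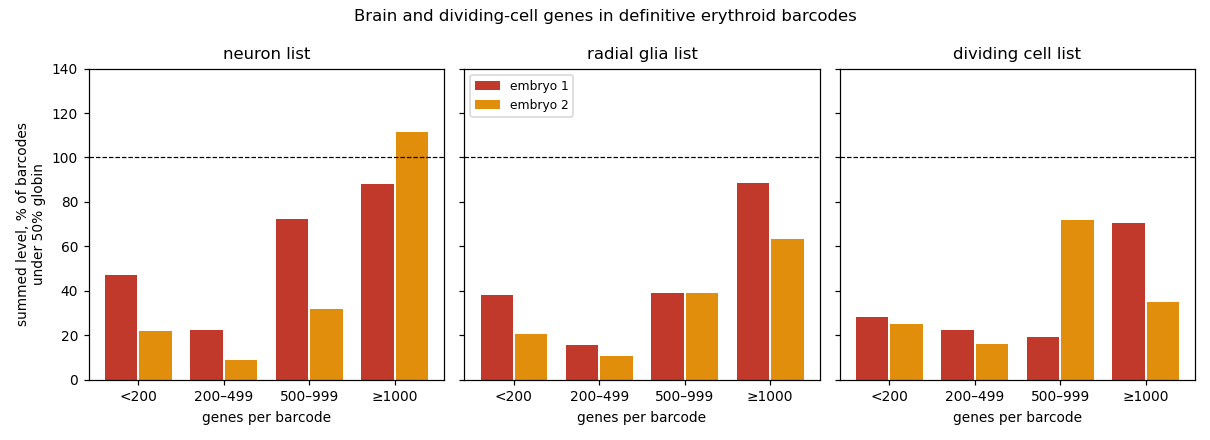
Summed level of 3 gene lists in definitive erythroid barcodes, as a percentage of the level in other barcodes of the same embryo (y axis), by the number of genes per barcode (x axis), for embryo 1 (red) and embryo 2 (orange). The dashed line marks 100%. The neuron list is lowest at 200 to under 500 genes (22.2% and 8.70%) and near 100% at 1000 or more genes (87.9% and 112%).

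The definitive group was last set against the primitive barcodes of the same brains. Of the 5708 genes, 550 (9.64%) were higher and 181 (3.17%) lower in definitive barcodes. The median log2 difference over all genes was 1.18. The primitive sums held only 49389 and 19206 non-globin UMIs, and 1932 of the genes tested had none there. With these at the lower bound that 3 UMIs allow, or left out where no bound can be given (1831 genes), the median was 0.33. Of the 550 genes called higher, 134 had no primitive UMI. With library totals the median was 0.43, 175 genes were higher and 340 lower, and 34.0% of calls were higher instead of 75.2%. DESeq2 called 345 higher and 194 lower, or 64.0%. Primitive barcodes also held less RNA of the neuron list, at 1012 and 1510 CPM, and of the radial glia list, at 182 and 0 CPM. The endothelial list stood at 40.5 and 52.1 CPM there, against 6.39 and 13.4 in definitive barcodes. These primitive values lie near what 3 UMIs over both embryos would give (43.7 CPM). The 1 endothelial gene tested was not called. In definitive barcodes 6 of 12 neuron and 4 of 7 radial glia genes were called higher, and 1 neuron gene lower. The part of the lower neuron and radial glia RNA of primitive barcodes in these calls was not tested.

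AHSP, ALAS2 and part of the haem pathway were higher in definitive than in primitive barcodes. AHSP stood at 324 and 781 CPM in primitive barcodes, far under the 56460.1 and 68670.6 of definitive barcodes (log2 difference 7.87 ± 0.40 SE, edgeR adjusted p = 2.12e-79, higher in 2 of 2 embryos). ALAS2 stood at 1134 and 1666 CPM against 20146 and 23579.7 (4.88 ± 0.32, adjusted p = 1.58e-50). Of 9 tested haem genes, 5 were higher and 0 lower. For UROD, with 1357 and 1145 CPM in primitive barcodes, the call was lost with library totals (edgeR adjusted p = 0.0656), and with library totals 2 of the 9 were called higher.

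Of 18 tested genes of the ubiquitin system, 12 were higher and 0 lower, with a median log2 difference of 2.79 (1.68 with genes at 0 set at their bound), and with library totals 7 of the 18 were higher and 0 lower. UBE2O stood at 121 and 52.1 CPM in primitive barcodes, close to its 99.5 and 93.8 in other barcodes, against 3657 and 3662 in definitive ones (5.94 ± 0.41, edgeR adjusted p = 5.19e-45). MKRN1 stood at 243 and 260.3, and RNF10, another RING-type protein, at 142 and 104 CPM against 588 and 638. BNIP3L stood at 162 and 260.3 against 1239.7 and 1429 CPM. Of 10 autophagy genes, 4 were higher and 0 lower, and with library totals 2 and 1. Of 14 iron genes, NCOA4 and GLRX5 were higher and both ferritin chains lower, with NCOA4 at 304 and 364 CPM and GLRX5 at 202 and 312 CPM in primitive barcodes. The call of GLRX5 was lost with library totals (edgeR adjusted p = 0.253). Of 14 dividing-cell genes, 8 were higher than in primitive barcodes, TOP2A and MKI67 among them, and 0 lower. With library totals these counts were 5 and 0. Of the 14 genes, 6 had no primitive UMI, and MKI67 had 3. Their median log2 difference was 3.16, or 2.19 with genes at 0 set at their bound or left out. The dividing-cell list of definitive barcodes was at 37.5% and 29.0% of its level in other barcodes. The part of RNA from other cells in these calls was not tested. Of 11 genes reported for primitive erythroid cells, 2 had a model and 0 could be tested.

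BPGM stood at 324 and 312 CPM in primitive barcodes against 3061 and 2679 (3.97 ± 0.33, edgeR adjusted p = 1.81e-30), while carbonic anhydrase 1 stood at 648 and 521 against 650.1 and 733.5 CPM. The call of carbonic anhydrase 1 (adjusted p = 0.00536 with edgeR) was lost with library totals (log2 difference 0.26, 0.655), DESeq2 (1.09, 0.180), no replicate block (0.96, 0.104) and definitive barcodes under 200 genes alone (0.14, 0.847). Of 26 tested membrane genes 3 were higher and 3 lower. MPP1 had 2 UMIs in all primitive barcodes and 1686 in definitive ones, a ratio of 30.0 after scaling with an exact counting interval of 8.28 to 248. PCTP had 1 UMI and 1536, a ratio of 54.6 (9.78 to 2158). ICAM4, the Landsteiner-Wiener blood group protein, named after its values were seen, ran the other way, with 769 and 729 CPM in primitive and 19.9 and 19.2 CPM in definitive barcodes. EPOR, with 223 and 521 CPM in primitive barcodes, overlapped between the groups, and its call (edgeR adjusted p = 0.00023) was lost with library totals (0.300).

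Several genes had no UMI in the primitive sums. Against a limit of 3 UMIs over both embryos (43.7 CPM), GPX1 was at least 17.7-fold higher in definitive barcodes, PLVAP, a protein of endothelial fenestrae, at least 8.76-fold, MARCH2, a ubiquitin ligase, at least 5.60-fold, the fatty acid receptor CD36 at least 4.30-fold and RRM2 at least 3.80-fold. PLVAP stood at 428 and 262 CPM in definitive barcodes and at 1.51 and 2.13 CPM in other barcodes, and the endothelial list, which does not include it, summed to 6.39 and 13.4 CPM in definitive barcodes. MZT2B, a component of the microtubule-nucleating ring complex named after its values were seen, stood at 5386 and 6209 CPM against 162 and 156 in primitive barcodes.

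Both ferritin chains and some antioxidant genes were called lower in definitive than in primitive barcodes, and the ferritin calls depended on the setting. FRIL stood at 28670.4 and 27387 CPM and FRIH at 24661 and 21920.2, above the 8969 and 10451 and the 6852 and 9222 CPM of definitive barcodes (log2 differences -0.70 ± 0.25 and -0.72 ± 0.25, edgeR adjusted p = 0.0400 and 0.0326). The call of FRIL was lost in 7 alternatives and that of FRIH in 8, with DESeq2 among the latter (log2 difference -0.77, adjusted p = 0.0837). Both were lost without the replicate block (0.0651 and 0.0757 in edgeR). The log2 differences there, -0.71 and -0.72, were about as large as with the block. Without barcodes of 1000 or more genes the log2 differences were -0.01 and -0.08 (edgeR adjusted p = 0.990 and 0.915), and with barcodes of at least 80% globin -0.04 and -0.05. With definitive barcodes of 200 to under 500 genes they were -0.10 and 0.31, the latter in the opposite direction. Of 15 tested genes for the globin chaperone and antioxidant defence, 2 were higher and 3 lower than in primitive barcodes. SOD1, superoxide dismutase, stood at 5264 and 6144 against 1144 and 1168 CPM (-1.46 ± 0.22, edgeR adjusted p = 2.64e-09). With definitive barcodes of 200 to under 500 genes alone, SOD1 was at -0.52 and its call was lost (0.161). GPX4, which protects membrane lipids, stood at 2490.4 and 2812 against 719.7 and 892 CPM, a call lost when barcodes of 1000 or more genes were left out (0.465). PRDX2 stood at 18000.0 and 21556 CPM in primitive barcodes, above both definitive sums, yet its TMM log2 difference was 0.42 ± 0.25 (adjusted p = 0.294) and it reversed to -0.42 with library totals (edgeR adjusted p = 0.00206, a call in the opposite direction). When barcodes of 1000 or more genes were left out it was 1.18 (edgeR adjusted p = 0.0229).

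Among the genes with the lowest log2 differences were ADA, adenosine deaminase, at 547 and 1145 against 1.42 and 1.92 CPM, MT1E, a metallothionein, at 1134 and 573 against 2.84 and 3.83 CPM, and SULT1A2, a sulphotransferase, at 466 and 469 against 0.710 and 0 CPM. PF4, a chemokine of platelets, stood at 445 and 937 against 51.9 and 47.9 CPM (-2.83 ± 0.42, edgeR adjusted p = 8.30e-10). KLF3, a transcriptional repressor, stood at 324 and 312 against 42.6 and 38.3 CPM, and NEFM, a neurofilament gene, at 385 and 885 against 112 and 68.9 CPM. Rankings of this kind rest on 42 primitive barcodes. When primitive barcodes were taken from 10% globin upward (221 and 124 barcodes), 935 genes were higher and 846 lower in definitive barcodes, with 420 of the 550 higher and 176 of the 181 lower calls kept.

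Finally, the embryos were compared within the definitive group. Of 1321 non-globin genes at 50 CPM or more in both, 21 differed by 2-fold or more, 13 higher in embryo 1 and 8 higher in embryo 2. With 1 library each there is no test. The farthest was RL37, a ribosomal protein name, at 288 CPM in embryo 1 and 2719.6 in embryo 2. It sums 4 models, and other barcodes showed a like gap, 295 and 2708 CPM. APOE, an apolipoprotein, stood at 65.4 and 289 CPM in definitive barcodes and at 182 and 194 in the others. In the 21 definitive barcodes of 500 to under 1000 genes of embryo 2, where the microglia list was high, APOE reached 2703 CPM, against at most 50.6 CPM in the other classes of that embryo. APOE had 151 UMIs in all definitive barcodes of embryo 2. RHCE was among the genes higher in embryo 2 (174 and 421 CPM), and VIM among those higher in embryo 1 (520.0 and 214.5 CPM), with 995 and 789 CPM in other barcodes. RL37 and APOE were named after their values were seen.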

How the data were processed

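The authors ran cellranger 3.1.0 against the TS_2.0 assembly and deposited raw UMI counts per gene model and barcode. Its default counting leaves out reads that map to several genes. No coordinates are printed, since TS_2.0 was not used here. Counts of models of one name were summed. Globin genes were left out of the tested table and its totals. UMI sums of the 3 groups in 2 embryos were tested in edgeR 4.0.16 (R 4.3.3, TMM factors, filterByExpr, embryo as block, quasi-likelihood test, Benjamini-Hochberg adjustment over 5708 genes, threshold 0.05). The common coefficient of biological variation was 0.113. The procedure was tested on simulated data. Doublets were kept, and no gene minimum was set. The embryos are separate animals, and the block is the embryo itself, from the labels.

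Members and the 20 gene lists (342 genes, 293 with a model, 29 matched through UniProt entry names) were chosen with earlier results of these data known. From each list the 4 genes highest in definitive barcodes and those with the extreme log2 differences were named, and further the top 15 and 10 by level or difference. This rule gave 150 genes (1 an identifier only); which of them the text describes was decided by role with their values known. Values after ± are approximate standard errors, calculated back from the test as the log2 difference over the square root of the quasi-likelihood F. The alternatives were other globin and embryonic limits, gene minimums, scalings, tools, filters and group definitions. Some of the genes are not reported here.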

Additional observations from a re-analysis of the deposited data

How the results depend on the processing

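With 2 embryos and 42 primitive barcodes, the tests have 2 residual degrees of freedom, and without one embryo no test is left. The number of definitive barcodes then ranged from 589 to 1620, the median UMIs from 8580.5 to 10041, the median genes from 175 to 195.5 and the alpha to beta ratio from 0.00603 to 0.00938. Limits at 30 or 80% globin, or at 5 or 20% embryonic globin, left the number within 1.5 times of 2209. Definitive barcodes numbered 1016 with at least 200 genes, 812 with 200 to under 500 and 1193 under 200. The medians of the 2 embryos averaged 13396.8, 13171.5 and 4940.75 UMIs and 293.25, 264.5 and 142.5 genes. Under 200 genes the embryos lay apart, with medians of 3009.5 and 6872 UMIs.

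Against other barcodes, higher calls (606) fell to 402 with library totals and 315 with definitive barcodes under 200 genes. Lower calls (1127) were 4337 with library totals, 94 with no filter, 53 with DESeq2, 59 with at least 200 genes, 675 with primitive barcodes from 10% globin and 210 under 200 genes. Against primitive barcodes, higher calls (550) were 175 with library totals, 345 with DESeq2, 1095 from 30% globin, 935 with primitive barcodes from 10% globin and 323 under 200 genes, and lower calls (181) were 340, with no filter 120, from 30% globin 487 and with primitive barcodes from 10% globin 846. Fewer genes (2641) were tested under 200 genes and more (15249) with no filter, and DESeq2 gave no adjusted p for 2767 of the 5708 genes against primitive barcodes and for 111 against other barcodes. For the rest the cause was not tested. The last of these settings and the divisions by genes and UMIs were chosen after seeing the data.

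The groups are paired by the embryo they came from. Without this replicate block, 570 genes were higher and 671 lower than in other barcodes, and 441 and 159 against primitive barcodes.

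Of the log2 differences of named genes, FRIH against primitive barcodes reversed to 0.31 with definitive barcodes of 200 to under 500 genes, and PRDX2 to -0.42 with library totals and -0.064 under 200 genes. Among the differences followed through the alternatives, no other reversed. Not all named genes were followed. With library totals, CSF3R against primitive barcodes went from 0.30 to -0.46.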
